A study of Homo sapiens with 6 samples.

Results

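Collagen genes encode the chains of the collagen superfamily, and they were taken here as every protein-coding gene of GENCODE release 29 whose symbol reads COL, a number, A, a number. The rule found 44 genes among the 58735 gene IDs of the count table. It left out 9 further genes whose symbols begin the same way, which are pseudogenes, antisense transcripts and COL4A3BP, a lipid transfer protein gene with no collagen chain. RNA was compared between 2 groups of HCT116, a colorectal carcinoma cell line: cells labelled WT and given an empty lentiviral vector, and cells given a lentiviral vector for overexpression of SETD8, a histone lysine methyltransferase whose gene is now named KMT5A. Both groups were cultured alike and selected with puromycin as stable clones, how many clones each library holds is not given, and the design text speaks of transfection instead. There were 3 libraries in each group, made from poly(A)-selected RNA. Whether replicates are separate cultures is not stated, so every p-value below reflects the spread among these 6 libraries, which may be technical.

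A collagen chain carries a stretch of repeated triplets, each with glycine at its first place, and 3 such chains wind into a triple helix. Chains are hydroxylated and folded in the endoplasmic reticulum, leave it in large carriers, and are trimmed and cross-linked outside the cell. Fibrillar collagens give tissue its tensile strength, type IV networks underlie epithelia as basement membrane, and other classes link, anchor or coat these structures or span the plasma membrane. Epithelial cells make mainly basement membrane and membrane-spanning collagens, while fibrillar collagens are mostly products of fibroblasts.

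The repeat that makes these genes a family could be read in each of the 44 coding sequences. Glycine is encoded by GGN, and GGN codons made up a median of 24.3% of the codons in the longest GENCODE coding transcript of a member, from 9.17% in COL12A1 to 30.7% in COL9A3. The longest unbroken run of triplets that start with GGN held 23 triplets in COL26A1 and 343 in COL3A1. The first 10 triplets of the longest run are shown for 4 collagen genes with high levels here, COL18A1, COL6A2, COL12A1 and COL9A3, and for COL17A1 and COL4A5, which changed, with the GGN codons in capitals.
COL18A1: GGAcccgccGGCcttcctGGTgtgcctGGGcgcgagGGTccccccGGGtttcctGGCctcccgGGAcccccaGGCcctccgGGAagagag
COL6A2: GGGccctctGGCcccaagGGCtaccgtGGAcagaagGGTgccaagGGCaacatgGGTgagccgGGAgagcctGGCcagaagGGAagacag
COL12A1: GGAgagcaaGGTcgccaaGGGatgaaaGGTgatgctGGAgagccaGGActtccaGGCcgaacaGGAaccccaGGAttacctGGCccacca
COL9A3: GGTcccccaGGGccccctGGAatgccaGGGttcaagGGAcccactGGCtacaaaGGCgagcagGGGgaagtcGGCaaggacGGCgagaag
COL17A1: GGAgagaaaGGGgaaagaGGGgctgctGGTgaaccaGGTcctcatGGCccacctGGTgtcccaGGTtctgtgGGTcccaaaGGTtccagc
COL4A5: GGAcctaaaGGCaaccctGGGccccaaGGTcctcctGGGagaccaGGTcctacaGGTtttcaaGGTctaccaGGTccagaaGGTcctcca
These stretches start at codon 932 of 1754 in COL18A1, 256 of 1019 in COL6A2, 2803 of 3063 in COL12A1, 181 of 684 in COL9A3, 641 of 1497 in COL17A1 and 1249 of 1691 in COL4A5. COL6A2 had a longest run of 87 triplets, whereas those of COL18A1 and COL12A1 held 30 and 32.

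The libraries held 17056672 to 20471843 counts. Levels are given as CPM, counts scaled to the normalised library size, and a floor of 3 counts corresponds to 0.1497 to 0.1745 CPM, for counting error only. KMT5A stood at 46.0, 47.3 and 53.9 CPM in vector replicates 1, 2 and 3 and at 65.4, 66.2 and 75.5 CPM in SETD8 replicates 1, 2 and 3. Vector replicate 1 was closer to the SETD8 libraries (chi-square per degree of freedom 11.7 to 13.5) than to vector replicates 2 (14.2) and 3 (34.5), so counts of calls are also given with single libraries left out. The 8 epithelial markers all passed the filter on low counts, with a sum of 11087 to 13629 CPM in vector and 11681 to 13169 CPM in SETD8 libraries, most of it from keratin genes. Of these markers CDH1, the E-cadherin gene, was called lower (117 ± 21.5 against 80.7 ± 5.43 CPM) and CLDN4, a claudin gene, higher (267 ± 25.1 against 366 ± 22.4 CPM, with SD and n = 3 each). Of all genes tested, 4.75% were called lower and 3.08% higher.

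Of the 44 collagen genes, 18 passed the filter on low counts (40.9%), against 12440 of 19951 protein-coding genes (62.4%). The filter keeps a gene that has enough counts in at least 3 libraries, the size of a group, whichever group they belong to. Summed over all members, the collagen level was 767.6 ± 61.7 CPM with vector and 534.2 ± 39.8 CPM with SETD8 (SD, n = 3 each). A handful of genes carried them: COL6A2, COL18A1, COL6A1 and COL12A1 together held 84.8% to 86.0% of all collagen counts in vector libraries and 83.9% to 84.6% in SETD8 libraries. Levels of different genes were compared as RPKM, the CPM per kilobase of merged exons, which understates a gene that uses only some of its exons.

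**Figure D1:**
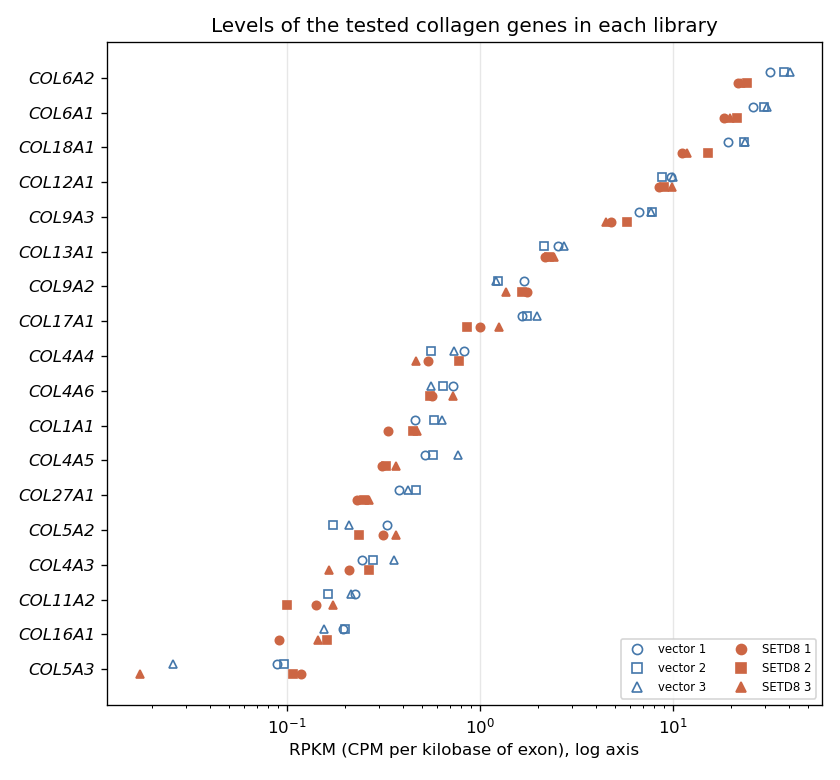
RPKM of the 18 collagen genes that passed the low-count filter (log axis), ordered by mean, with 1 marker per library (open blue, vector; filled orange, SETD8). COL6A2, COL6A1 and COL18A1 lead, and the 10 genes from COL4A4 downwards lie under 1 RPKM.

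COL6A2 led at 36.5 ± 4.32 RPKM in vector libraries, followed by COL6A1 at 28.6 ± 2.52, COL18A1 at 22.1 ± 2.39, COL12A1 at 9.53 ± 0.64, COL9A3 at 7.35 ± 0.63 and COL13A1 at 2.47 ± 0.29 RPKM (SD, n = 3 each). Each of these stood above the next in every library of both groups. Below them COL17A1 (1.79 RPKM in vector libraries) and COL9A2 (1.38) overlapped in vector libraries. COL4A4 (0.71), COL4A6 (0.64), COL4A5 (0.62) and COL1A1 (0.56) followed, and several neighbours in this range did not differ beyond their spread. COL27A1 stood at 0.42, COL4A3 at 0.29, COL5A2 at 0.24, COL11A2 at 0.20, COL16A1 at 0.18 and COL5A3 at 0.070 RPKM.

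The other 26 collagen genes did not pass the filter. COL1A2, COL8A1, COL9A1, COL19A1 and COL22A1 had 0 counts in every library. A further 12 had at most 3 counts in any library, namely COL2A1, COL4A1, COL4A2, COL6A5, COL6A6, COL8A2, COL10A1, COL11A1, COL20A1, COL23A1, COL24A1 and COL28A1. The last 9 reached 4 counts (COL3A1 and COL21A1), 5 (COL5A1), 6 (COL25A1), 7 (COL6A3), 8 (COL14A1), 11 (COL26A1), 12 (COL7A1) and 19 counts (COL15A1) in their highest library. For these genes a difference between the groups was not detectable at this depth.

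Several collagens are known to assemble from different chains, and in these cells the usual partners of expressed chains were often at or near 0. The type VI chain genes COL6A1 and COL6A2 were the 2 highest collagens, while COL6A3, the remaining chain of the classical heterotrimer, had 0, 7 and 4 counts in vector and 0, 4 and 2 in SETD8 libraries. Per length, COL6A2 was 3624-fold above COL6A3 in vector libraries and 4132-fold above it in SETD8 libraries. COL6A5 and COL6A6, which encode alternative partners, had at most 2 and 1 counts. COL1A1 had 62 to 114 counts per library and COL1A2, which encodes the second chain of type I collagen, had 0, so COL1A1 was at least 116-fold higher per length in vector and at least 86.0-fold higher in SETD8 libraries (bound set at 3 counts over a group). COL9A2 and COL9A3, of the fibril-associated type IX collagen, were expressed and COL9A1 had 0 counts, at least 990.1-fold below COL9A3 per length in vector and at least 674-fold below it in SETD8 libraries. The basement membrane genes showed the pattern by pairs: COL4A3, COL4A4, COL4A5 and COL4A6, whose chains form the tissue-restricted type IV networks, passed the filter, whereas COL4A1 and COL4A2, the chains of the ubiquitous network, had at most 3 and 2 counts.

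With SETD8, 7 of the 18 tested collagen genes fell and 0 rose (adjusted p under 0.05 in edgeR's quasi-likelihood test of 14370 genes). Among all genes tested, 7.83% were called, 4.75% as lower and 3.08% as higher. That balance depended on the scaling: TMM gave 682 lower and 443 higher genes and library totals 505 and 792, while the collagen counts were 7 and 0 with both. With single libraries left out, 10 to 1738 genes were lower, fewest without SETD8 replicate 1 and most without vector replicate 1. The fallen genes were COL18A1, COL6A1, COL6A2, COL9A3, COL17A1, COL4A5 and COL27A1, and their folds lay between 1.45 for COL6A1 and 1.85 for COL4A5. In these 7 every SETD8 library lay below every vector library, a pattern found as a fall in 15.9% and as a rise in 14.4% of all genes tested. Of the 18 genes, 15 had a negative and 3 a positive log2 fold change, with a median of -0.46 against a median of 4.72e-04 over all genes tested. At an unadjusted p under 0.05 the counts were the same, 7 and 0, and DESeq2 and limma-voom also gave 7 and 0. The shares of all genes at an unadjusted p under 0.05, and those called by limma-voom, are not given here.

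**Figure D2:**
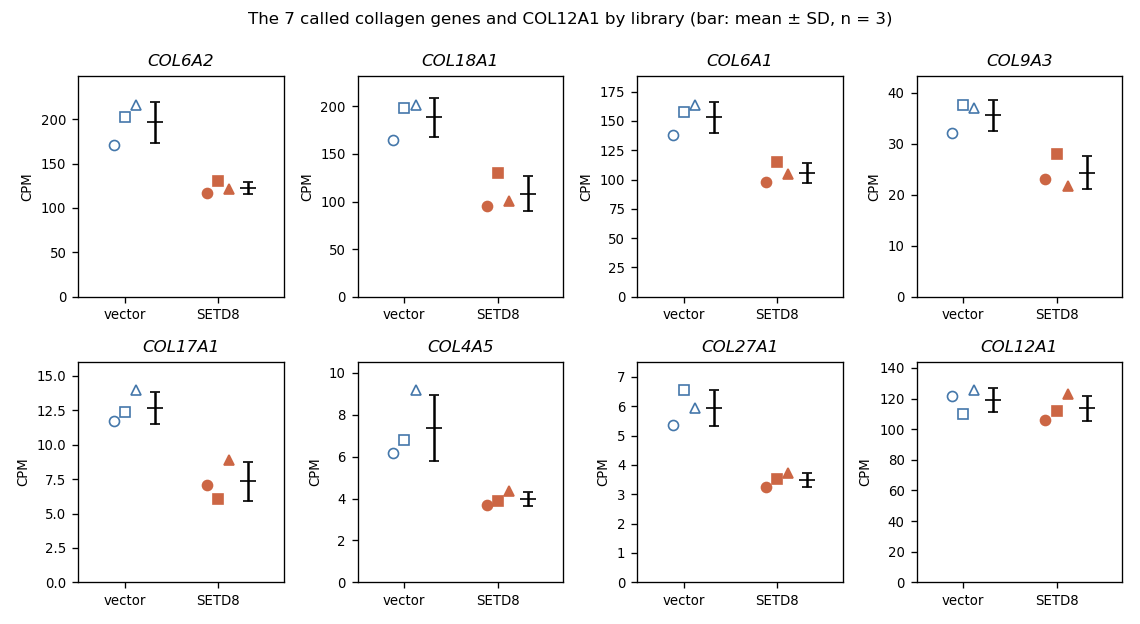
CPM in each library (axes from 0) for the 7 collagen genes called lower and for COL12A1, with the mean ± SD of 3 libraries beside the points. The 7 called genes separate the groups, with vector replicate 1 the lowest vector library in each, while the COL12A1 values overlap.

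COL18A1 encodes the chain of type XVIII collagen, a basement membrane heparan sulfate proteoglycan whose C-terminal fragment is endostatin. The gene (ENSG00000182871) lies on chromosome 21 from 45405137 to 45513720 of GRCh38. It stood at 164.8, 198.5 and 201.6 CPM in vector replicates 1, 2 and 3 and at 94.97, 129.8 and 100.3 CPM in SETD8 replicates 1, 2 and 3. SETD8 replicate 2 was the highest of its group and still lay below vector replicate 1. From 188 ± 20.4 to 108 ± 18.7 CPM on average (SD, n = 3 each), this was a 1.74-fold fall (log2 fold change -0.80, SE 0.12, edgeR adjusted p = 0.00521). At its 3′ end COL18A1 overlaps SLC19A1 on the opposite strand over 1401 bases, 16.4% of its merged exons, and although the library kit keeps strand, no source says whether the counting used it. SLC19A1, a folate carrier gene, was at 96.9 ± 12.3 CPM with vector and 97.5 ± 5.00 CPM with SETD8 (log2 fold change 0.01, edgeR adjusted p = 0.970).

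COL6A1 and COL6A2 encode the α1 and α2 chains of the beaded filaments of type VI collagen, and both fell. COL6A2 (ENSG00000142173, chromosome 21, 46098097 to 46132849) stood at 170.7, 202 and 216 CPM in vector replicates 1, 2 and 3 and at 117, 130.3 and 121 CPM in SETD8 replicates 1, 2 and 3. This was a 1.60-fold fall (log2 fold change -0.68, SE 0.098, edgeR adjusted p = 0.00492). COL6A1 (ENSG00000142156, chromosome 21, 45981737 to 46005050) stood at 138, 157 and 164 CPM in vector replicates and at 97.8, 115 and 105 CPM in SETD8 replicates. Its fall was 1.45-fold (log2 fold change -0.53, SE 0.095, edgeR adjusted p = 0.00848). In each library the ratio of COL6A1 to COL6A2 counts was 0.81, 0.78 and 0.76 in vector replicates 1, 2 and 3 and 0.84, 0.88 and 0.87 in SETD8 replicates 1, 2 and 3. The ranges of this ratio did not overlap, and the two-sided exact permutation p was 0.1, the smallest that 3 against 3 allows (adjusted over 3 ratios, 0.1; all chosen after their values were seen).

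COL18A1, COL6A1 and COL6A2 lie near the end of the same chromosome arm, with 468 kb between COL18A1 and COL6A1 and 93.0 kb between COL6A1 and COL6A2. The 3 other tested genes lying wholly within this span did not pass the test: SLC19A1, the noncoding LINC01694 (log2 fold change -0.01) and PCBP3, an RNA-binding protein gene (-0.25, edgeR adjusted p = 0.529). Over the 129 tested genes of chromosome 21, 8 fell (6.20%, against 4.75% of all genes tested) and 1 rose (against 3.08% of all genes tested). Their median log2 fold change was -0.01. These 3 collagens are among the 8.

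Of the fibril-associated collagens, COL9A3 fell and the more abundant COL12A1 did not pass. COL9A3 encodes the α3 chain of type IX collagen (ENSG00000092758, chromosome 20, 62816244 to 62841159). It stood at 32.1, 37.6 and 37.1 CPM in vector and 23.1, 28.0 and 21.8 CPM in SETD8 replicates 1, 2 and 3, with no overlap (log2 fold change -0.55, SE 0.12, edgeR adjusted p = 0.0206). It shares 45 exon bases with TCFL5, a transcription factor gene on the opposite strand (log2 fold change 0.27, edgeR adjusted p = 0.230). COL12A1, whose chain decorates type I fibrils and carries many fibronectin-like repeats, stood at 121.5, 110.1 and 125 CPM in vector and 106, 112 and 123 CPM in SETD8 replicates. Its groups overlapped (log2 fold change -0.07, 95% interval -0.32 to 0.18, edgeR adjusted p = 0.674). Intervals take the SE of the edgeR test with 4 degrees of freedom, those that the 6 libraries give. The test itself uses more, so the intervals are wider than its p-values imply. Within each library, the ratio of COL18A1 to COL12A1 counts was 1.36, 1.80 and 1.61 in vector and 0.90, 1.16 and 0.82 in SETD8 replicates 1, 2 and 3 (two-sided exact permutation p = 0.1, adjusted 0.1). As above, the pair was chosen after its values were seen, and no smaller p is possible. COL9A2 had 5.84 ± 1.13 and 6.69 ± 0.83 CPM (log2 fold change 0.20, 95% interval -0.34 to 0.73), and COL16A1, a collagen of fibroblasts and muscle, had 1.695 ± 0.22 and 1.23 ± 0.34 CPM (-0.47, 95% interval -1.42 to 0.49).

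The membrane-spanning collagen of hemidesmosomes, COL17A1, fell, while COL13A1 did not pass. COL17A1 (ENSG00000065618, chromosome 10, 104031286 to 104085957) stood at 11.7, 12.4 and 13.9 CPM in vector and at 7.04, 6.06 and 8.90 CPM in SETD8 replicates 1, 2 and 3, a 1.73-fold fall (log2 fold change -0.79, SE 0.17, edgeR adjusted p = 0.0169) with no overlap. COL13A1, a transmembrane collagen of cell-matrix adhesions, had 14.5 ± 1.72 and 13.5 ± 0.78 CPM (log2 fold change -0.11, 95% interval -0.48 to 0.27, n = 3 each).

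Of the tested type IV genes, COL4A5 fell and the other 3 did not pass. COL4A5 (ENSG00000188153, chromosome X, 108439844 to 108697545) encodes the α5 chain, which takes part in both tissue-restricted type IV networks. It stood at 6.16, 6.79 and 9.16 CPM in vector and at 3.71, 3.88 and 4.36 CPM in SETD8 replicates 1, 2 and 3. Vector replicate 3 stood above the rest of its group. The fall was 1.85-fold (log2 fold change -0.89, SE 0.20, edgeR adjusted p = 0.0226). COL4A6, its neighbour on the opposite strand, encodes the partner of α5 in one of these networks and had 5.96 ± 0.79 and 5.69 ± 0.87 CPM (log2 fold change -0.07, 95% interval -0.60 to 0.46). The ratio of COL4A5 to COL4A6 counts was 0.91, 1.14 and 1.77 in vector and 0.71, 0.76 and 0.65 in SETD8 replicates (two-sided exact permutation p = 0.1, adjusted 0.1). This pair was also chosen after its values were seen, and the test cannot give a smaller p. COL4A4 (7.12 ± 1.40 and 5.98 ± 1.63 CPM, log2 fold change -0.25) and COL4A3 (2.69 ± 0.54 and 1.95 ± 0.46 CPM, -0.45) overlapped between the groups.

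COL4A5 and COL4A6 are transcribed away from each other from adjacent starts. The RefSeq window of COL4A5, 250 bases before to 50 after its start on build GRCh38.p14, shares 121 bases with that of the nearer COL4A6 start, and the pair of CCAAT letters in it lies within the shared stretch. The window is shown because one gene of the pair changed and the other did not pass, with CCAAT or its complement ATTGG in capitals.
COL4A5, chrX:108439588-108439887, plus strand: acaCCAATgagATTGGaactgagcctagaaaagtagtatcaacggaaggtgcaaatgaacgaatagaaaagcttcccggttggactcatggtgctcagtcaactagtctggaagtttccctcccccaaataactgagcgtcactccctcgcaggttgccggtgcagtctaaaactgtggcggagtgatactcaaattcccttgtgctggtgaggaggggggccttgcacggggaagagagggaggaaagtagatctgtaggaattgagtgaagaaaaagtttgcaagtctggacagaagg
RefSeq windows were at hand for 32 of the 44 collagen genes, 44 windows in all. Windows were searched on both strands for 4 motifs. These were the GC box, GGGCGG; the CCAAT box, CCAAT; the core letters of TEAD factors, GGAATG; and the AP-1 letters, TGANTCA. Matches of different motifs may overlap. GGGCGG was in 54.5% of the collagen windows against 45.0% of 35116 windows of all genes, and CCAAT in 31.8% against 34.6%. GGAATG was in 6.82% against 14.0%, and TGANTCA in 2.27% against 7.71%. The collagen windows with GGAATG were 3, from COL10A1, COL11A2 and COL12A1, and 0 of the 6 windows of the called genes held it. A match is a description of letters and not a binding site, and GGAATG missing from a window says nothing on TEAD elsewhere.

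The windows of COL18A1, which has separate starts, and of COL6A2 are shown as those of the abundant fallen genes with an entry. Their GGGCGG letters or the complement CCGCCC are in capitals.
COL18A1 first start, chr21:45404915-45405214, plus strand: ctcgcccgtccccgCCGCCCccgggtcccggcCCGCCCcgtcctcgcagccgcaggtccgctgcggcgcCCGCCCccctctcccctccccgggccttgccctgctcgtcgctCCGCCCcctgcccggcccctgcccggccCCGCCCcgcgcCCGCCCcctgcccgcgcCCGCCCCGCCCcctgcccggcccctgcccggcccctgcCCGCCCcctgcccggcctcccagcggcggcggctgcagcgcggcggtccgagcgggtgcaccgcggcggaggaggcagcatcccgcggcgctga
COL18A1 second start, chr21:45455272-45455571, plus strand: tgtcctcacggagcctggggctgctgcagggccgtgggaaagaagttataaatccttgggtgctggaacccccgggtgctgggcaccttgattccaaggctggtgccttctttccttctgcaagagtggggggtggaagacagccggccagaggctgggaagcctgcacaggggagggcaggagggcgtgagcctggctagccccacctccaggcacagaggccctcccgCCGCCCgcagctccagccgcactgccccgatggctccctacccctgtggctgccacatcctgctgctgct
COL6A2, chr21:46097862-46098161, plus strand: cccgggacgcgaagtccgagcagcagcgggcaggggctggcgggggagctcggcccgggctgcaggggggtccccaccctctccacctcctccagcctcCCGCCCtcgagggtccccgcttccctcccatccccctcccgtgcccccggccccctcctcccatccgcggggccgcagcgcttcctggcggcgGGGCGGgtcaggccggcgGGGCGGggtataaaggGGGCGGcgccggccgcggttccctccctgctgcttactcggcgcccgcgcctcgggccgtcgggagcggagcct
The first COL18A1 window was 86.7% G and C with 9 matches, the second 66.3% with 1, and the COL6A2 window 79.3% with 4. Counts per gene do not show which COL18A1 start was used.

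Among the fibrillar collagens COL27A1 fell and the others did not pass. COL27A1 (ENSG00000196739, chromosome 9, 114155560 to 114312511), a collagen of cartilage and developing epithelia, stood at 5.34, 6.54 and 5.94 CPM in vector and at 3.23, 3.52 and 3.72 CPM in SETD8 replicates 1, 2 and 3 (log2 fold change -0.77, SE 0.19, edgeR adjusted p = 0.0316). COL1A1, the main chain of type I collagen, ranged from 4.52 to 6.22 CPM in vector and from 3.28 to 4.65 CPM in SETD8 libraries, and SETD8 replicate 3 overlapped vector replicate 1 (log2 fold change -0.41, 95% interval -1.005 to 0.18, edgeR adjusted p = 0.236). COL11A2 (1.35 ± 0.23 and 0.93 ± 0.25 CPM, -0.54) and COL5A2 (1.77 ± 0.61 and 2.27 ± 0.49 CPM, 0.36) overlapped as well. COL5A3, near the detection floor at 0.12 to 0.79 CPM, had a log2 fold change of 0.20 with a 95% interval of -1.59 to 2.00.

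**Figure D3:**
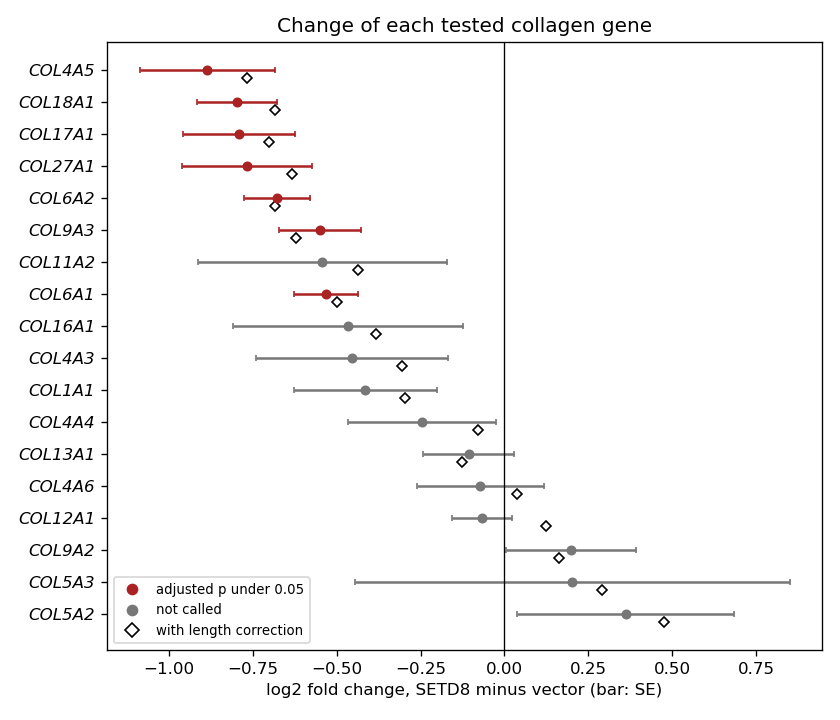
Log2 fold change (SETD8 minus vector) of the 18 tested collagen genes with its SE, red where the edgeR adjusted p was under 0.05, and the value after length correction as an open diamond. The 7 called genes lie from -0.89 to -0.53, and length correction moves COL27A1 from -0.77 to -0.63.

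Collagen genes are long, with a median of 7989 bases of merged exons in the tested members against 4745 over all genes tested. The fit was repeated with each library's trend on the length of a gene's longest transcript removed, a measure other than merged exons. The median log2 fold change of the 18 genes was then -0.34, and 6 of the 7 stayed called. The share of all genes called in this fit is not given here. COL27A1 was lost (log2 fold change -0.63, edgeR adjusted p = 0.0539), COL18A1 stood at -0.68 (edgeR adjusted p = 0.00163) and COL6A2 at -0.68 (edgeR adjusted p = 4.69e-04). COL12A1 changed sign to 0.12 (edgeR adjusted p = 0.397) and COL4A6 to 0.04 (edgeR adjusted p = 0.933), both still uncalled. The called genes had a median of 7066 bases of merged exons and the tested uncalled ones 9124.

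The direction of the 7 falls held whichever library was left out, but the number called did not. Removing vector replicates 1, 2 and 3 in turn left 7, 2 and 6 called, and removing SETD8 replicates 1, 2 and 3 left 0, 4 and 3. The 2 called without vector replicate 2 were COL6A2 (edgeR adjusted p = 0.0456) and COL18A1 (0.0488). Without SETD8 replicate 1 both had an edgeR adjusted p of 0.0508. In that fit 7 collagen genes were lower at an unadjusted p under 0.05, for which no share of all genes is given here. COL4A5 was lost without each library other than vector replicate 1 (edgeR adjusted p 0.0530 to 0.111), and COL27A1 was lost without vector replicate 2 and without each SETD8 library (0.0970 to 0.155).

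**Figure D4:**
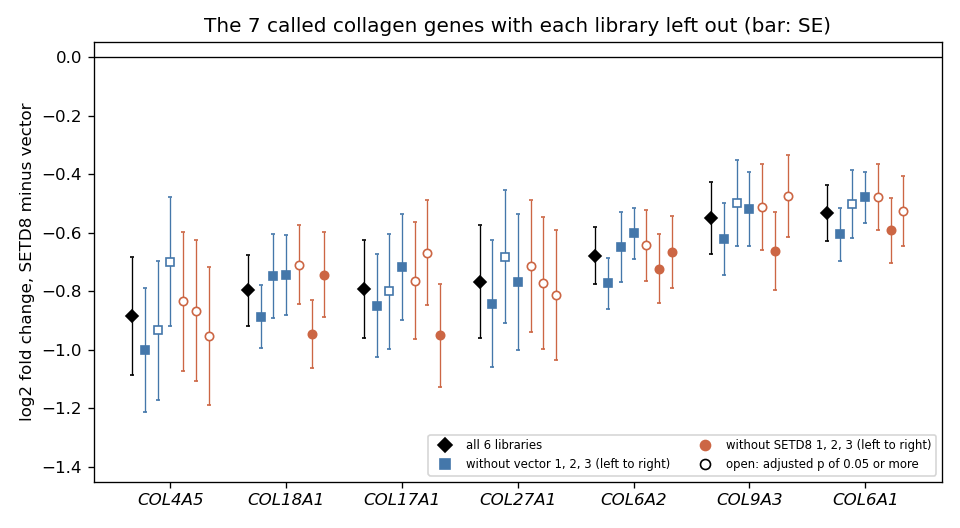
Log2 fold change with SE of the 7 called collagen genes with all 6 libraries (black) and with each vector (blue) or SETD8 (orange) library left out, open where the edgeR adjusted p was 0.05 or more. Every value lies below 0, between -1.0005 and -0.48, and without SETD8 replicate 1 all 7 are open.

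Genes that modify, trim and cross-link collagen chains fell in part. The lists below were chosen with earlier results of these data known, so their counts are descriptive. They can be set beside the 4.75% of all genes called lower and the 3.08% called higher by edgeR with all 6 libraries. Shares of all genes at an unadjusted p under 0.05 are not given here, and differences between lists were not tested. Of 17 tested genes for chain modification and folding, 6 fell and 0 rose (8 lower and 1 higher at an unadjusted p under 0.05; 3 fell with library totals or a replicate block, and 0 to 8 with single libraries left out), with a median log2 fold change of -0.31. FKBP10, a prolyl isomerase and collagen chaperone gene, stood at 99.3, 101 and 99.5 CPM in vector and 69.9, 69.3 and 66.7 CPM in SETD8 replicates 1, 2 and 3 (log2 fold change -0.54, SE 0.081, edgeR adjusted p = 0.00514). PLOD1 (-0.50) and PLOD3 (-0.31), lysyl hydroxylase genes, and P3H1 (-0.51), a prolyl 3-hydroxylase gene, fell, as did P4HB (-0.33, edgeR adjusted p = 0.0489), the disulfide isomerase subunit of prolyl 4-hydroxylase. SERPINH1, the collagen-specific chaperone HSP47, had 112 ± 7.08 and 109 ± 9.40 CPM (log2 fold change -0.03, edgeR adjusted p = 0.850). Of 12 export genes, 0 fell and 0 rose, also with DESeq2, limma-voom and at an unadjusted p under 0.05 in edgeR, with a median of 0.02, while 1 rose with length correction and 1 without vector replicate 1.

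Of 14 tested genes for propeptide cleavage and cross-linking, 6 fell and 0 rose, with a median log2 fold change of -0.54. TGM2, a transglutaminase gene, stood at 277, 303 and 339 CPM in vector and 166, 177 and 169 CPM in SETD8 replicates 1, 2 and 3 (log2 fold change -0.84, SE 0.091, edgeR adjusted p = 0.00262). Its call survived the removal of any 1 library, with an edgeR adjusted p of at most 0.0401. ADAMTS2, a procollagen N-proteinase gene, fell from 10.995 ± 1.33 to 5.04 ± 1.03 CPM (-1.12, edgeR adjusted p = 0.00699). LOXL2 (-0.82), a lysyl oxidase gene, and PXDN (-0.57), whose enzyme forms sulfilimine cross-links in type IV collagen, fell as well.

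Of 8 tested receptor and uptake genes, 3 fell and 0 rose, with a median of -0.46: MRC2 (-1.35), an endocytic collagen receptor gene, ITGA2 (-0.56), of the collagen-binding integrin α2β1, and DDR1 (-0.36), a collagen-activated kinase gene. Of 6 tested collagen-degrading protease genes, 0 fell and 0 rose in edgeR, DESeq2 and limma-voom with a median of -0.09. MMP14, named after its value was seen, was lower at an unadjusted p under 0.05 in edgeR. Of 13 tested basement membrane partner genes, 10 fell and 0 rose, with a median of -0.64. Length correction gave 9 falls and a median of -0.46 for this list, and 8 and -0.44 for cleavage and cross-linking. It gave 3 and -0.37 for receptors and uptake, and 7 and -0.35 for modification and folding. The shares of all genes called with length correction are not given here, so these counts have no baseline. HSPG2, the gene of the heparan sulfate proteoglycan perlecan, stood at 144, 146 and 181 CPM in vector and 91.9, 105 and 95.9 CPM in SETD8 replicates (-0.69, SE 0.10, edgeR adjusted p = 0.00514), and AGRN (-0.67), LAMA5 (-0.83) and LAMA2 (-0.55) fell. Of the 16 calls among the named genes of these lists, leaving out vector replicates 1, 2 and 3 removed 0, 13 and 2, and leaving out SETD8 replicates 1, 2 and 3 removed 15, 7 and 11, with an edgeR adjusted p of at most 0.220. With single libraries left out, the fallen genes numbered 1 to 9 for cleavage and cross-linking, 0 to 6 for receptors and 0 to 13 for basement membrane partners, lowest without SETD8 replicate 1 and, for the first 2 of these lists, equally low without vector replicate 2.

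**Figure D5:**
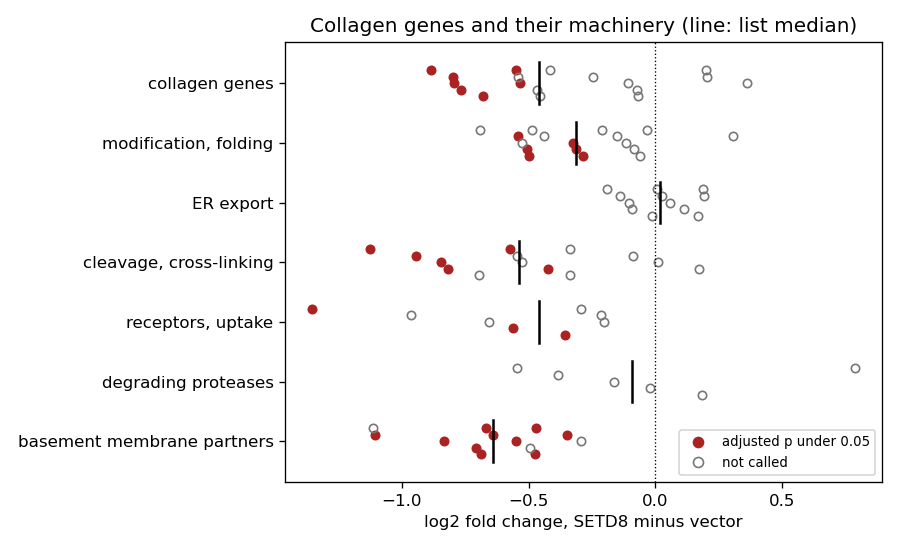
Log2 fold change (SETD8 minus vector) of the tested collagen genes and of 6 lists of genes that act on or with collagen, 1 point per gene, filled red where the edgeR adjusted p was under 0.05, with the list median as a line. Medians are -0.46 for the collagen genes, -0.64 for basement membrane partners and 0.02 for export genes.

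Markers of other cell types that make collagen were at mixed levels. Of 12 fibroblast markers, DCN, PDGFRA, FAP, POSTN and PRRX1 had 0 counts in every library, and the summed level was 358.6 to 496.1 CPM in vector and 308 to 337 CPM in SETD8 libraries. S100A4 held most of it at 322.8 to 455 CPM in vector and 287 to 308 CPM in SETD8 libraries, and FBLN1 had 24.6 to 38.5 and 17.4 to 25.6 CPM. Of the 4 fibroblast markers tested these 2 were called lower, against 4.75% of all genes tested. The highest of the other fibroblast markers, TWIST1, went the other way without a call. It had 1.33 to 1.69 CPM in vector and 2.17 to 2.501 CPM in SETD8 libraries (log2 fold change 0.66, edgeR adjusted p = 0.168). FBN1 had a log2 fold change of -0.02 (edgeR adjusted p = 0.982). S100A4 is also expressed by tumour epithelial cells. Endothelial markers summed to 1.40 to 2.65 CPM in vector and 1.11 to 2.07 CPM in SETD8 libraries, with KDR and EMCN at 0 counts and 0 of 1 tested marker called. Smooth muscle markers (5 of 6 matched) summed to 34.995 to 54.9 and 26.4 to 34.992 CPM, with 0 markers at 0. Of the 4 tested, DES, CNN1 and CSPG4 were called lower, against 4.75% of all genes tested. ACTA2 was not called (log2 fold change 0.0062, edgeR adjusted p = 0.990). CNN1 was low, at 0.76 to 1.90 CPM in vector and 0.23 to 0.48 CPM in SETD8 libraries. CSPG4 led the list at 27.7 to 42.0 CPM in vector and 19.6 to 27.4 CPM in SETD8 libraries. Immune markers summed to 7.69 to 12.7 and 4.71 to 7.25 CPM, with PTPRC and CD3E at 0. HLA-DRA, the only 1 tested, was called lower, against 4.75% of all genes tested. The part of these genes in the collagen values was not tested. In bulk RNA fewer cells with a transcript and less of it per cell cannot be told apart.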

How the data were processed

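The deposited table holds read counts per Ensembl gene, not normalized by the authors, for 58735 genes. HISAT2, STAR, HTSeq, featureCounts and the builds hg38 and GRCh38 appear, without roles, in the submitters' processing notes. For annotation and strand setting, the sources used here say nothing. Columns named NC were taken as the vector group, the only other group. Names, positions and lengths came from GENCODE 29, promoter windows from RefSeq (GRCh38.p14).

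Genes were filtered with filterByExpr (14370 kept), scaled by TMM and compared, with no covariate, by the two-sided quasi-likelihood test of edgeR 4.0.16 with robust estimation (R 4.3.3, limma 3.58.1). P-values were adjusted over all tested genes after Benjamini and Hochberg, at a threshold of 0.05. Log CPM used a prior count of 2. The SE is the log2 fold change divided by the square root of F. The fit was also run on simulated counts whose libraries varied independently within a group, and no result here rests on that run. Alternatives included DESeq2 1.42.0, other scalings and filters, length and GC corrections (lowess, span 0.3), a replicate block and leaving out libraries. No pair of libraries agreed within sampling noise.

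Members and lists were chosen with earlier results of these data known. All tested members are named; 1 coding stretch is not reported here. Those called and the 3 highest by RPKM are given in every library, as are some others chosen after their values were seen. Of each machinery list, up to 4 called genes by adjusted p are named, with SERPINH1 and P4HB. Figures used matplotlib 3.10.9.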

Additional observations from a re-analysis of the deposited data

How the results depend on the processing

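The 7 collagen falls were all called with DESeq2-type size factors, library totals, no low-count filter, a stricter low-count filter at 1 CPM, DESeq2, limma-voom, the replicate block and GC correction, and 6 were called with length correction. Leaving out single libraries gave 0 to 7 collagen falls and 0 rises. The median log2 fold change of the tested collagen genes was -0.46, and -0.34 with length correction. It ranged from -0.50 to -0.27 with single libraries left out, where COL15A1 also passed the filter in 5 of the 6 fits. Among all genes, 682 were lower and 443 higher. No low-count filter gave 1051 lower and 949 higher, library totals 505 lower and 792 higher, and DESeq2 907 lower and 739 higher. Leaving out single libraries gave 10 to 1738 lower and 1 to 1771 higher. Causes were not tested.

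Signs of some uncalled genes turned. Length correction gave 0.12 for COL12A1 and 0.037 for COL4A6. Leaving out single libraries gave COL4A6 -0.20 to 0.023, COL5A3 -0.17 to 0.66 and SERPINH1 -0.11 to 0.0093, and library totals gave SERPINH1 0.0098. P4HB lost its call with DESeq2-type size factors, library totals and the replicate block, PLOD3 with library totals and the block (adjusted p = 0.0576), ITGA2 with library totals and LAMA5 with GC correction.

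Same-numbered libraries did not deviate together (r = 0.025, 0.0078 and -0.064 for numbers 1, 2 and 3), so the numbers are not taken as pairs. The replicate block gave 645 lower and 532 higher genes in all, 7 collagen falls, 0 rises and a median of -0.47. Depth and spread limit what the uncalled genes show: for 8 of the 11, all but COL12A1, COL13A1 and COL9A2, the 95% interval reached below -0.53, the smallest called change.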
